A study of Mus musculus with 16 samples.

Results

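The genes described here encode the subunits and assembly factors of the proteasome in mouse regulatory T cells (Treg). They were chosen by symbol, as every gene whose name starts with Psma, Psmb, Psmc, Psmd, Psme, Psmf or Psmg and a number, except Psmb8 and Psmb9, and the brightest probe set stood for a gene with several. The rule found 48 of the 19938 genes measured by a probe set with exactly 1 symbol. Of these, 17 were core genes, 22 regulator genes and 7 assembly genes. The other 2, Psmc3ip and Psme3ip1, encode proteins named after a proteasome subunit they bind, are not subunits themselves, and are given on their own. RefSeq lists 49 protein-coding genes that match the rule, and the remaining one, Psme2b, is annotated on a probe set that also names Psme2, which was left out because it carries several symbols.

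The study sorted Treg from pooled lymph nodes of wild type female C57BL/6 mice, 8 to 12 weeks old, by surface CD103, an integrin chain encoded by Itgae, and ICOS, a costimulatory receptor. This gave 4 subsets: CD103neg ICOSneg, CD103pos ICOSneg, CD103neg ICOSpos and CD103pos ICOSpos. RNA from each was measured fresh from the sort or activated, that is after 3 days of culture in a suppression assay with Ly5.1 congenic naive CD4 T cells, irradiated splenocytes from Rag2-/- mice and soluble anti-CD3 at 0.5 ug/ml. Activated Treg were sorted again as CD4-positive, CD25-positive cells without Ly5.1. Every group, 8 in all, was measured on 2 arrays, numbered as biological replicates, and the design states 2 independent experiments. Activated cells differ from fresh cells in culture, in the other cells of the assay and in a second sort as well as in stimulation, and these cannot be told apart.

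The proteasome is the protease complex that degrades proteins tagged with ubiquitin. Its barrel-shaped core is built from rings of alpha subunits (Psma genes) and beta subunits (Psmb genes), and 3 of the beta subunits, encoded by Psmb5, Psmb6 and Psmb7, carry the catalytic sites. A regulatory particle of ATPases (Psmc genes) and non-ATPase subunits (most Psmd genes) recognises, unfolds and feeds substrates into the core, and dedicated chaperones assemble both. In immune cells interferon induces replacement catalytic subunits, among them the one encoded by Psmb10, and the PA28 activator encoded by Psme1 and Psme2. T cells that enter division after stimulation are known to raise protein synthesis and turnover.

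Promoter letters of these genes are given first. RefSeq promoter windows of GRCm38.p6, 250 bases before the start, were matched for 38 of the 46 core, regulator and assembly genes. No window was matched for Psma8, Psmb1, Psmb2, Psmb7, Psmc3, Psmd3, Psmd7 and Psmg2. The motifs below and the stretches printed were picked after the scan, on both strands, and a match is a description of letters only. The first set shows the 100 bases before the start of 3 catalytic subunit genes, with capitals for TGACNNNGC, the core of the element bound by the NRF family of factors. The genes Psmb5 (chr14:54617996-54618095, minus strand) and Psmb6 (chr11:70525257-70525356, plus strand) hold 1 match each in the stretch, and Psmb10 (chr8:105938393-105938492, minus strand) holds none.
Psmb5: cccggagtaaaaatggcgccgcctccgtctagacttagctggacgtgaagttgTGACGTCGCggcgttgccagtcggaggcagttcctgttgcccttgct
Psmb6: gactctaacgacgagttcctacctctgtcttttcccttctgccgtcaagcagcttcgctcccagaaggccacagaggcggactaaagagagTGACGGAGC
Psmb10: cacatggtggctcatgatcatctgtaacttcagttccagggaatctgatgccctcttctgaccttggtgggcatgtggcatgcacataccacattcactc

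That motif lay in the windows of 5 of 38 proteasome genes (13.2%), which were Psmb5, Psmb6, Psmc6, Psmd12 and Psmd9, and in 11.5% of all 27025 genes with a window. The motif with the widest gap between the proteasome genes and all genes was CCGGAAG, the letters of a site for ETS family factors. It was found for 12 of 38 proteasome genes (31.6%) and for 7.83% of all genes. The 12 include Psmd4, Psme3 and Psmg1, which did not pass in average activation. The site was not compared between genes that rose and genes that did not. The second set shows the 60 bases before the start of 4 regulator genes among the 12, picked from those that rose. CCGGAAG or its reverse complement is in capitals. They are Psmd12 (chr11:107479468-107479527, plus strand), Psmc1 (chr12:100110142-100110201, plus strand), Psmd6 (chr14:14120946-14121005, minus strand) and Psmd2 (chr16:20651592-20651651, plus strand).
Psmd12: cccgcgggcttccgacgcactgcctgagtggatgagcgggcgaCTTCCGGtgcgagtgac
Psmc1: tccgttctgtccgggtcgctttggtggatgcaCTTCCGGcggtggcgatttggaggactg
Psmd6: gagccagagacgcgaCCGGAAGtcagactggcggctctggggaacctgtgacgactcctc
Psmd2: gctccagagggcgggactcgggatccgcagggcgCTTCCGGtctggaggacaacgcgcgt
The other motifs were the CCAAT box (CCAAT), in 13 proteasome genes (34.2%) against 37.5% of all genes, and the E-box CACGTG, in 4 (10.5%) against 6.86%. The interferon response element, GAAA followed after any 2 bases by GAAA, was found in 3 (7.89%) against 3.46%. The STAT site TTCNNNGAA was found in 1 (2.63%) against 8.13%, and the NF-kappaB-like site, GGGA followed after any 3 bases by TCC, in 3 (7.89%) against 4.41%.

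The sorting genes and Treg markers were read as checks of the labels. Foxp3, the defining factor of Treg, lay between 11.69 and 12.84 on the log2 intensity scale on 15 arrays and at 8.53 on activated CD103neg ICOSpos replicate 2. On that array Itgae was 6.30 and Icos 11.25, with Icos at 12.88 on its partner, replicate 1. This array therefore stands apart from its label. Counts of passing genes or median differences, of the proteasome and of the other gene lists, are given below with and without it. Itgae on the partner, a CD103neg array, was above both activated CD103pos ICOSneg arrays, which read 9.94 and 9.87. Markers of B cells (4 of 5 measured) and of myeloid cells (4 of 8) were lower in activated cells, where 16.8% of all genes were. The mean log2 level of the B cell list lay between 6.04 and 7.09 on fresh and between 5.46 and 6.07 on activated arrays. That of the myeloid list reached 6.22 on fresh and 5.83 on activated arrays, with medians of 5.90 and 5.42. The 5.83 was read on activated CD103neg ICOSpos replicate 2, and the other activated arrays reached 5.57. Without that array the median activation difference was -0.76 for B cell and -0.20 for myeloid markers, against -0.75 and -0.18 with it. Their part in the proteasome values was not tested.

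Activation raised most proteasome genes on average over the 4 subsets. A gene is said to rise or fall where its adjusted p was below 0.05 in limma's test with Benjamini-Hochberg adjustment over all 19938 genes. By this test 30 of 46 genes rose and 1 fell, where 14.4% of all genes rose and 16.8% fell, 31.2% in all. Core genes accounted for 13 of the rises and the single fall, regulator genes for 16 and assembly genes for 1. The median difference, activated minus fresh, was 0.35 on the log2 scale over the 46 genes and -0.0032 over all genes. It was 0.45 in core, 0.34 in regulator and 0.17 in assembly genes. In such bulk samples, fewer cells with a transcript and less of it per cell cannot be told apart. The difference was positive within each replicate taken by itself for 41 of 46 genes, and the share over all genes was not counted.

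The counts were unlike between subsets. In CD103neg ICOSneg cells 18 of 46 genes rose and in CD103pos ICOSneg cells 26 rose, where 8.65% and 10.2% of all genes rose. In CD103pos ICOSpos cells 9 rose, where 5.36% of all genes did, and this count was 14 with quantile normalization applied again and 3 with each array centred on its median. In CD103neg ICOSpos cells 0 genes passed in either direction by limma, where 2.09% of all genes passed. An unadjusted p below 0.05 was found for 4 (Psmb1, Psmd8, Psmf1 and Psmg1). The share of all genes at that unadjusted threshold was not counted. The median log2 difference over the 46 genes was 0.51, 0.69, 0.28 and -0.0014 in those 4 subsets and -0.06, -0.0044, 0.04 and 0.0044 over all genes, and in CD103neg ICOSpos cells 23 genes lay above and 23 below 0. None of the 46 genes fell in any subset taken alone, where 7.59%, 10%, 8.7% and 1.06% of all genes fell in CD103neg ICOSneg, CD103pos ICOSneg, CD103pos ICOSpos and CD103neg ICOSpos cells. The count of 9 in CD103pos ICOSpos cells dropped to 2 without fresh replicate 1 or activated replicate 1 of that subset and to 3 without fresh replicate 2. The count of 18 in CD103neg ICOSneg cells dropped to 11 without its fresh replicate 1.

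**Figure D1:**
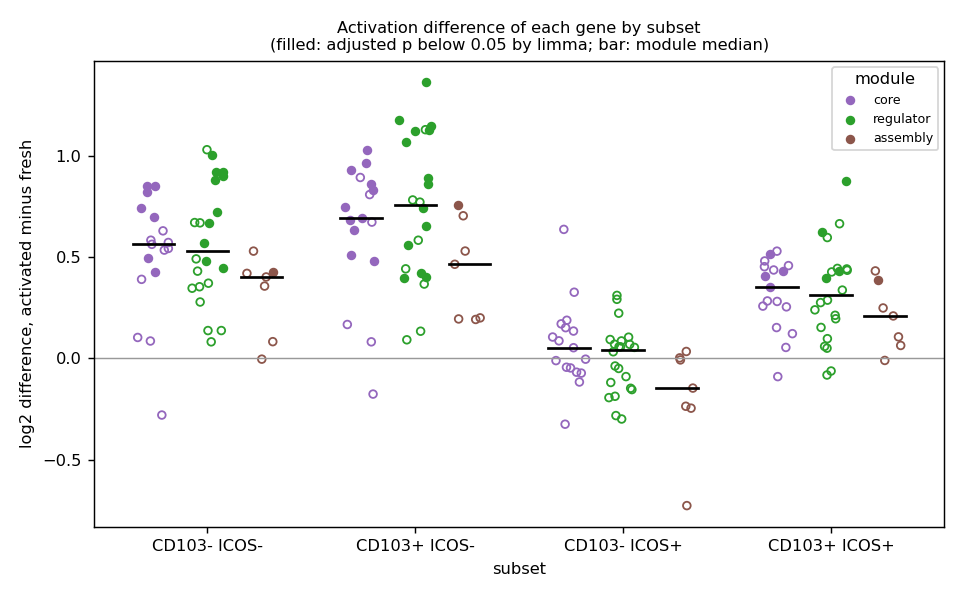
Log2 difference, activated minus fresh, for each of 46 proteasome genes (points) in each subset (x axis), coloured by module, with filled points for adjusted p below 0.05 by limma and a bar at the module median. The CD103neg ICOSpos points lie on both sides of 0 with none filled, and the medians of the 3 modules are above 0 in the other 3 subsets.

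Module levels show the same split by array. A module level is the median, over the genes of a module, of the log2 level minus that gene's mean over the 16 arrays. It is a description with no test. The core level in fresh cells was -0.44 and -0.11 (replicates 1 and 2) in CD103neg ICOSneg, -0.49 and -0.26 in CD103pos ICOSneg, -0.33 and -0.09 in CD103pos ICOSpos, and -0.04 and 0.09 in CD103neg ICOSpos cells. In activated cells it was 0.28 and 0.32, 0.29 and 0.47, 0.20 and 0.08, and 0.04 and 0.06, in the same order. Fresh CD103neg ICOSpos cells were the highest fresh subset in both replicates, and activated CD103neg ICOSpos cells the lowest activated subset in both. In activated replicate 2 this rests on the array set apart, at 0.06 against 0.08 in CD103pos ICOSpos cells. Other genes moved with this order. Markers of conventional CD4 T cell activation, read as the same kind of median level, stood at 0.84 and 0.91 on the fresh CD103neg ICOSpos arrays, against -0.68 to -0.27 on the other fresh arrays. Of the 6, Cd40lg and Il21 passed as higher in fresh ICOSpos cells, where 4.1% of all genes did. Treg markers had a mean log2 level of 11.48 and 11.28 there, against 11.35 to 11.97 on the other fresh arrays. The part of either list in the proteasome values was not tested. Replicate by replicate, the core difference between activated and fresh was 0.73 and 0.44 in CD103neg ICOSneg, 0.77 and 0.73 in CD103pos ICOSneg, and 0.52 and 0.17 in CD103pos ICOSpos cells. In CD103neg ICOSpos cells it was 0.08 in replicate 1, and -0.03 in replicate 2, the pair that holds the array set apart.

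The regulator level followed the core level. Its group mean in fresh cells was -0.26 ± 0.18 (SD, n = 2) in CD103neg ICOSneg, -0.27 ± 0.27 in CD103pos ICOSneg, -0.22 ± 0.19 in CD103pos ICOSpos and -0.00071 ± 0.04 in CD103neg ICOSpos cells. In activated cells it was 0.31 ± 0.03, 0.39 ± 0.13, 0.06 ± 0.08 and -0.02 ± 0.04 in that order. The last mean holds 0.01 on replicate 1 and -0.05 on replicate 2, the array set apart. The spread between fresh replicates was wide: the replicate 2 level was above the replicate 1 level in all 4 fresh subsets, in each of the 3 modules.

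Assembly genes had another order in fresh cells, and in activated cells the subsets ranked as in core and regulator genes. Their fresh group means were 0.00077 ± 0.18 in CD103neg ICOSneg, -0.04 ± 0.09 in CD103pos ICOSneg, 0.08 ± 0.20 in CD103neg ICOSpos and -0.30 ± 0.15 in CD103pos ICOSpos cells (SD, n = 2). Activated means were 0.26 ± 0.01, 0.30 ± 0.14, -0.11 ± 0.15 and -0.08 ± 0.15 in the same order. The activated CD103neg ICOSpos arrays read -0.22 and, for replicate 2, -0.0031. Assembly levels were thus higher on all 4 activated ICOSneg arrays than on all 4 activated ICOSpos arrays. The same held for core and regulator levels.

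**Figure D2:**
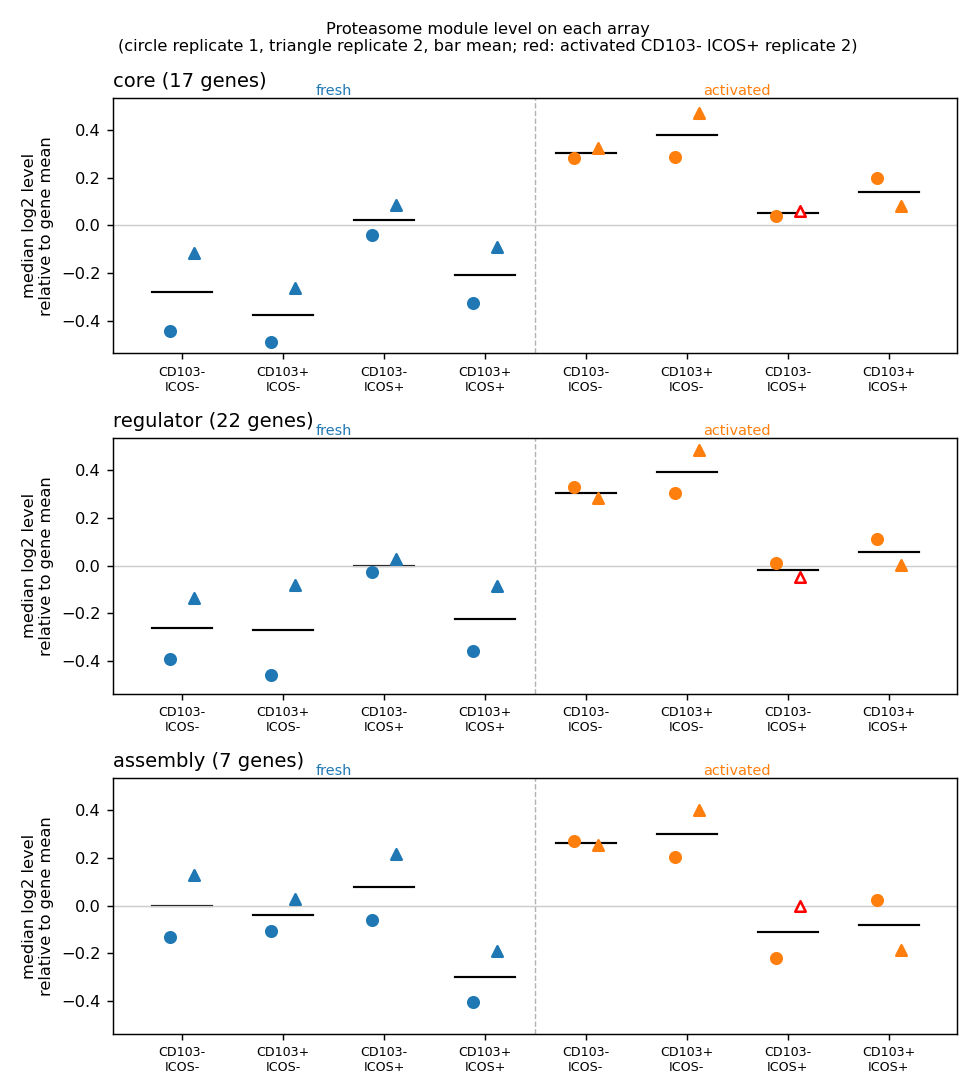
Module level on each of the 16 arrays (y axis, median log2 level relative to each gene's mean) by subset and state (x axis) for core, regulator and assembly genes, with circles for replicate 1, triangles for replicate 2 and bars for group means. Activated CD103neg ICOSpos replicate 2 is drawn hollow in red, and its core and regulator levels lie beside those of its partner.

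Among the core genes, the catalytic subunits were followed one by one. Psmb5, which carries the chymotrypsin-like site, read 11.87 and 11.77 (log2 intensity, replicates 1 and 2) in fresh CD103neg ICOSneg, 11.86 and 12.00 in fresh CD103pos ICOSneg, 12.28 and 12.43 in fresh CD103neg ICOSpos, and 12.12 and 12.04 in fresh CD103pos ICOSpos cells. Activated cells of the same subsets read 12.70 and 12.64, 12.57 and 12.57, 12.28 and 12.33, and 12.50 and 12.36. Fresh CD103neg ICOSpos cells thus already stood at the level they had after activation, while the 3 other subsets moved up without overlap between their arrays. The log2 difference was 0.85 ± 0.10 (SE, adjusted p = 0.000146, limma) in CD103neg ICOSneg, 0.64 ± 0.10 (0.000755) in CD103pos ICOSneg and 0.35 ± 0.10 (0.0336) in CD103pos ICOSpos cells.

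Psmb7, which carries the trypsin-like site, read 9.68 and 9.99, 9.50 and 9.76, 10.10 and 10.19, and 9.71 and 9.90 in fresh cells, in the subset order used for Psmb5. Activated cells read 10.60 and 10.55, 10.47 and 10.71, 10.20 and 10.08, and 10.30 and 10.22. The rise was 0.74 ± 0.14 (SE) in CD103neg ICOSneg and 0.96 ± 0.14 in CD103pos ICOSneg cells, with adjusted p = 0.00345 and 0.00052 by limma. Psmb6, which carries the caspase-like site, rose by 0.46 ± 0.10 averaged over the subsets (adjusted p = 0.00344, limma). Within subsets its rise passed in CD103pos ICOSneg cells alone, at 0.75 ± 0.20 (adjusted p = 0.0192, limma), and the differences between subsets were not tested for this gene one pair at a time.

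Psmb10, the interferon-induced replacement for Psmb7, did not pass in any comparison. Its log2 level was 10.43, 10.52 and 10.76 (lowest, median and highest) over the 8 fresh arrays and 10.42, 10.66 and 11.02 over the 8 activated arrays, so the ranges overlap. The highest value is that of the array set apart. The difference averaged over subsets was 0.13 ± 0.07 (SE, adjusted p = 0.206, limma; 95% confidence interval -0.02 to 0.28). Psmb10 and Psmb7 were also centred, each on its own mean over all arrays, and the centred difference is Psmb10 minus Psmb7. In fresh CD103neg ICOSneg and CD103pos ICOSneg cells it was 0.25 ± 0.33 and 0.42 ± 0.24 (SD, n = 2). It was -0.39 ± 0.09 and -0.37 ± 0.07 in the same subsets after activation. Its sign does not tell which gene was brighter, and its fall shows that Psmb7 rose more than Psmb10. Uncentred, the mean log2 level of Psmb10 was above that of Psmb7 in both subsets and states. The means were 10.60 against 9.83 and 10.56 against 9.63 when fresh, and 10.70 against 10.57 and 10.73 against 10.59 when activated. In CD103neg ICOSpos cells the centred difference read -0.08 and 0.06 when fresh. When activated it read -0.07 on replicate 1 and 0.43 on replicate 2.

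**Figure D3:**
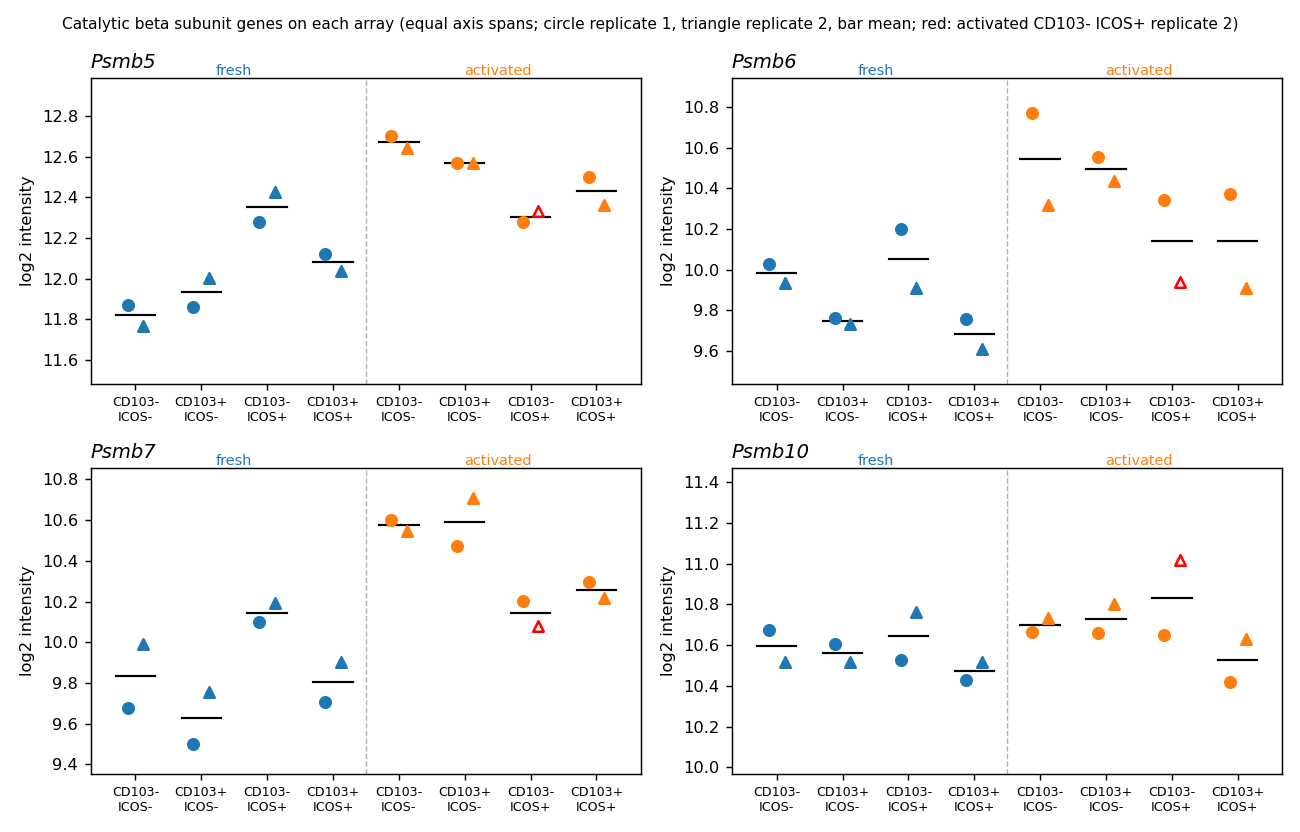
Log2 intensity of Psmb5, Psmb6, Psmb7 and Psmb10 on each array (y axis, 4 panels of equal span) by subset and state (x axis), with circles for replicate 1, triangles for replicate 2, bars for group means and a hollow red triangle for activated CD103neg ICOSpos replicate 2. Psmb5 and Psmb7 are higher in activated than in fresh cells of the ICOSneg subsets, and Psmb10 overlaps between states.

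The other core genes are structural. Psmb2, a non-catalytic beta subunit, had the smallest p of the core genes and did not overlap between states: it read 11.07 to 11.54 with a median of 11.27 over the 8 fresh arrays and 11.66 to 12.04 with a median of 11.82 over the activated ones. It rose by 0.56 ± 0.05 (SE, adjusted p = 5.88e-06, limma), 1.47-fold. Psmb4, another non-catalytic beta subunit, had the largest average rise of the core genes, 0.65 ± 0.20 (adjusted p = 0.0281, limma). Its replicates disagreed in size, with 1.18 in replicate 1 and 0.12 in replicate 2. The alpha subunit gene Psma5 rose by 0.53 ± 0.10 on average and by 1.03 ± 0.20 in CD103pos ICOSneg cells, with adjusted p = 0.00194 and 0.00428 by limma.

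Psma4, an alpha subunit gene, gave 0.34 with an adjusted p of 0.107 by limma and did not pass. Psma8 and Psmb11 encode subunits known from testis and from thymic epithelium, in that order. They were the dimmest of the 46 genes, with mean log2 levels of 4.81 and 5.59, below the median of 6.66 over all genes, as was the assembly gene Psmg3 at 6.43. Psma8 differed by 0.09 (adjusted p = 0.331), and Psmb11 was the gene that fell, by 0.16 ± 0.05 on the log2 scale (adjusted p = 0.033, limma). The Psmb11 call was kept in 11 of 21 alternative settings. At such levels background makes up much of the signal, and a difference can be understated.

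Across all core, regulator and assembly genes, 6 of 46 had every activated array above every fresh array. They were Psma1, Psmb1, Psmb2, Psmc1, Psmd8 and Psmf1, and 3.27% of all genes met the same condition. None of the 46 had every activated array below every fresh array, which held for 3.86% of all genes.

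**Figure D4:**
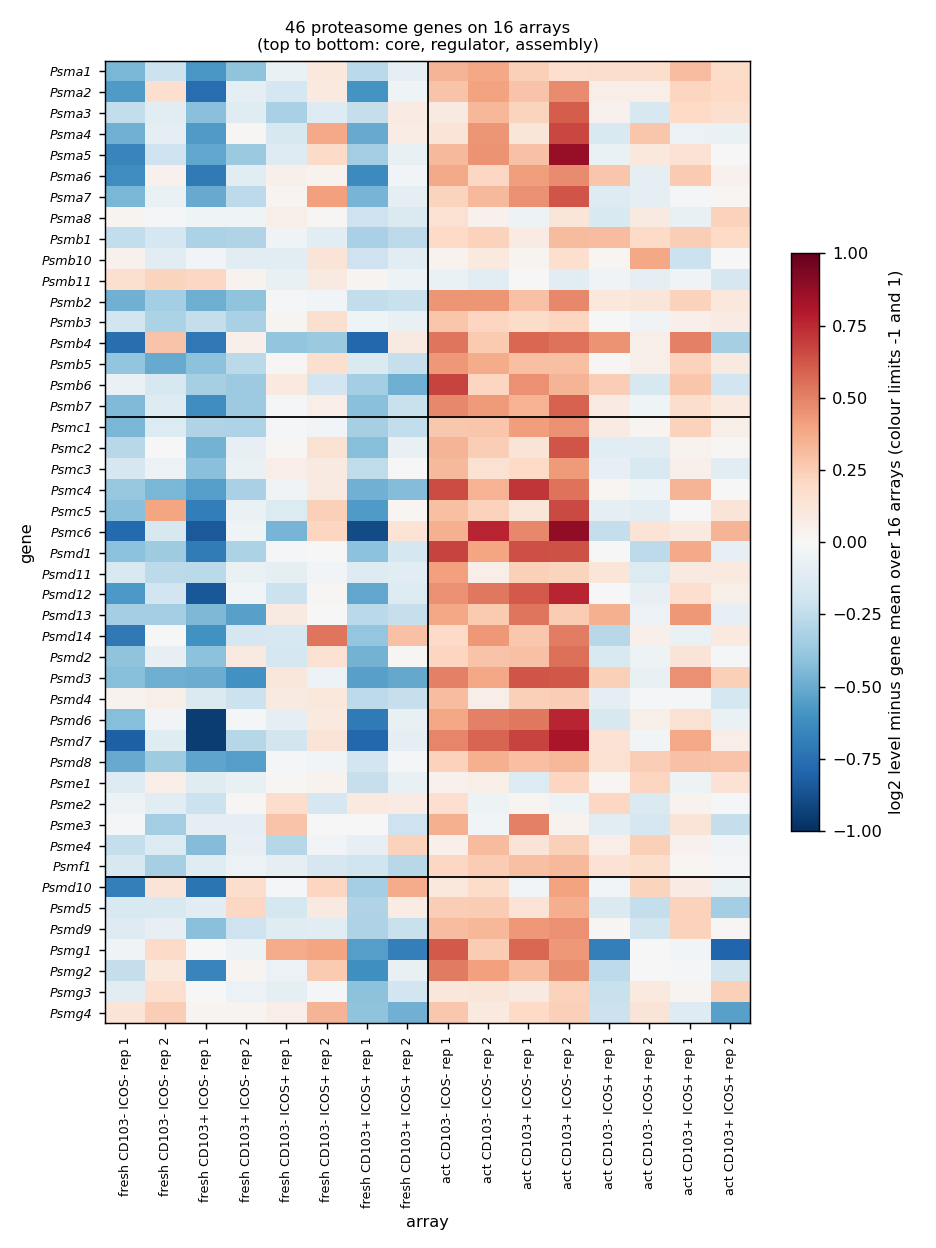
Log2 level minus the gene's mean over 16 arrays (colour, limits -1 and 1) for 46 proteasome genes (rows, core, regulator and assembly from top to bottom) on each array (columns, fresh left and activated right of the line). Most core and regulator rows change from blue to red across the line in the ICOSneg and CD103pos ICOSpos columns, and fresh replicate 1 columns are bluer than replicate 2 columns.

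In the regulatory particle, both the ATPase and the non-ATPase subunits took part. Psmd7, a lid subunit that pairs with the deubiquitinase Psmd14, read 8.52 and 9.21 in fresh CD103neg ICOSneg, 8.39 and 9.05 in CD103pos ICOSneg, 9.15 and 9.47 in CD103neg ICOSpos and 8.55 and 9.24 in CD103pos ICOSpos cells. After activation it read 9.82 and 9.92, 10.01 and 10.15, 9.48 and 9.31, and 9.72 and 9.40. It had the largest average rise of the 46 genes, 0.78 ± 0.14 (SE, adjusted p = 0.00133, limma), and rose by 1.36 ± 0.28, or 2.57-fold, in CD103pos ICOSneg cells (adjusted p = 0.00557, limma). In CD103neg ICOSpos cells its difference was 0.09, with a 95% confidence interval of -0.54 to 0.71.

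Psmd3, another lid subunit, was the gene with the smallest p. It read 9.10 and 9.04, 9.03 and 8.92, 9.64 and 9.47, and 8.98 and 9.02 in fresh cells, and 10.03 and 9.91, 10.16 and 10.15, 9.77 and 9.45, and 9.99 and 9.77 in activated cells, in the subset order used for Psmd7. Fresh CD103neg ICOSpos cells lay above the 3 other fresh subsets and overlapped with their own activated arrays. The average rise was 0.75 ± 0.06 (SE, adjusted p = 4.11e-06, limma), 1.68-fold. Psmc4, an ATPase subunit of the base, rose by 0.64 ± 0.07 (adjusted p = 3.85e-05, limma), and Psmc6, another ATPase, by 0.71 ± 0.19 (0.0147).

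Psmd1, a scaffold subunit of the base, rose by 0.92 ± 0.18 (SE) in CD103neg ICOSneg and by 1.15 ± 0.18 in CD103pos ICOSneg cells (adjusted p = 0.00455 and 0.000879, limma). Psmd8, a lid subunit, rose by 0.55 ± 0.05 on average (adjusted p = 6.15e-06, limma). Of the substrate and ubiquitin handling subunits, Psmd4, a ubiquitin receptor, gave 0.14 with adjusted p = 0.0504 by limma, and the deubiquitinase gene Psmd14 gave 0.30 with adjusted p = 0.17. Neither passed on average, though Psmd4 rose in CD103pos ICOSneg cells.

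Of the alternative activators Psme4 rose, and Psme1, Psme2 and Psme3 did not pass. Psme1 lay between 10.90 and 11.20 on fresh and between 11.00 and 11.35 on activated arrays, and Psme2 between 11.64 and 12.03 and between 11.71 and 12.07. The average differences were 0.13 ± 0.07 for Psme1 and 0.04 ± 0.07 for Psme2 (SE, adjusted p = 0.193 and 0.728, limma). Psme3, which encodes the nuclear activator PA28 gamma, gave 0.12 ± 0.10 (adjusted p = 0.431, limma). Psme4, which encodes PA200, rose by 0.26 ± 0.08 (0.0229), a call kept in 14 of 22 alternative settings. Psmf1, which encodes the inhibitor PI31, rose by 0.35 ± 0.04 (adjusted p = 8.61e-05, limma), with activated arrays between 9.78 and 10.12 and fresh arrays between 9.46 and 9.74.

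Of the 7 assembly genes, Psmd9, a chaperone of the regulatory base, was the 1 that rose. It read 6.94 to 7.27 on fresh and 7.18 to 7.82 on activated arrays, and the average rise was 0.40 ± 0.05 (SE, adjusted p = 0.00017, limma). For the core chaperone Psmg1 the differences had unlike signs: they were 0.36 and 0.53 in the ICOSneg subsets, 0.21 in CD103pos ICOSpos and -0.73 in CD103neg ICOSpos cells, none of which passed alone. Its 2 activated CD103neg ICOSpos arrays read 7.99 and, on replicate 2, 8.67, against 9.04 and 9.07 when fresh. The other base chaperones, Psmd5 and Psmd10, gave 0.13 and 0.22, and the core chaperones Psmg2, Psmg3 and Psmg4 gave 0.31, 0.17 and 0.01, with adjusted p from 0.0736 to 0.938 by limma.

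Before activation, a few proteasome genes were higher in ICOSpos than in ICOSneg cells. Of the 46 genes 5 were higher and 0 lower in fresh ICOSpos cells, where 4.1% of all genes were higher, 6.53% in all. They were Psmb5 (0.34 ± 0.07, SE), Psma1 (0.33 ± 0.08), Psmb2 (0.30 ± 0.07), Psmb3 (0.29 ± 0.06) and Psmd8 (0.42 ± 0.07). Their adjusted p ranged from 0.00319 to 0.0347 in limma. The median difference was 0.15 over the 46 genes and -0.05 over all genes. With the replicate number as a block 8 genes were higher, where 6.48% of all genes were higher and 11.4% passed in all, adding Psma7, Psmd3 and Psmd14. Leaving out any single fresh array other than CD103pos ICOSneg replicate 2 gave counts between 1 and 3, the lowest without CD103neg ICOSpos replicate 2.

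Psmd8 shows this fresh difference array by array. It read 10.50 and 10.65 in CD103neg ICOSneg and 10.48 and 10.46 in CD103pos ICOSneg cells, against 10.99 and 10.98 in CD103neg ICOSpos and 10.81 and 10.99 in CD103pos ICOSpos cells, with no overlap. In fresh cells the CD103 comparison gave 0 passing genes by limma, where 0.206% of all genes passed. It gave 10 genes with an unadjusted p below 0.05. The share of all genes at that unadjusted threshold was not counted, here or for the interaction below. Of the 46 differences 41 were negative, that is lower in CD103pos cells, with a median of -0.15, against -0.0022 over all genes. In 33 genes the difference was negative within each replicate, and in 12 the replicates had opposite signs. The genes share the same arrays and are not independent, and the share of negative differences over all genes was not counted. The interaction of CD103 and ICOS in fresh cells also gave 0 passing genes, where 0.0451% of all genes passed, with 4 at an unadjusted p below 0.05.

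After activation, several proteasome genes were lower in ICOSpos cells. In activated cells 8 genes were lower and 0 higher in ICOSpos than in ICOSneg cells, where 5% of all genes were lower and 6.94% passed in all. The core genes among them were Psma7 (-0.46 ± 0.12, SE), Psmb7 (-0.38 ± 0.10) and Psmb2 (-0.27 ± 0.07). The regulator genes were Psmd1 (-0.58 ± 0.13), Psmc4 (-0.49 ± 0.10) and Psmd4 (-0.29 ± 0.07). The assembly genes were Psmg1 (-0.84 ± 0.18) and Psmd9 (-0.36 ± 0.08), all with adjusted p between 0.0181 and 0.049 in limma. The median difference was -0.31, against -0.00056 over all genes, and 44 of 46 differences were negative. The genes share the same arrays and are not independent, and the share of negative differences over all genes was not counted. The replicate number as a block raised the count to 23 lower genes, where 9.79% of all genes were lower and 13.7% passed in all, and all 8 were among them.

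That count rests on few arrays. It fell to 3, of which 2 were among the 8, without activated CD103neg ICOSpos replicate 2, the array set apart, where 6.65% of all genes passed. It fell to 0 without activated CD103neg ICOSneg replicate 1 or activated CD103pos ICOSpos replicate 2, and to 1 or 2 without either activated CD103pos ICOSneg array. Leaving out any of 4 other arrays gave 5: activated CD103neg ICOSneg replicate 2, activated CD103neg ICOSpos replicate 1, or either fresh CD103neg ICOSpos array. CD103 made 0 passing genes in activated cells by limma, where 0.717% of all genes passed. An unadjusted p below 0.05 was found for 1 gene, Psmd3, and the share of all genes at that threshold was not counted.

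The test of the difference itself compared the activation response of the ICOSpos subsets with that of the ICOSneg subsets. In 10 of 46 genes the response was smaller in ICOSpos cells and in 0 larger, where it was smaller for 4.65% of all genes and 6.72% passed in all. The core genes were Psma5, Psma7, Psmb2, Psmb3, Psmb5 and Psmb7, and the regulator genes Psmc4, Psmd1, Psmd3 and Psmd8. The differences ran from -0.87 ± 0.18 (SE) for Psmd1 and -0.79 ± 0.20 for Psma5 to -0.49 ± 0.09 for Psmb3 and -0.48 ± 0.09 for Psmd8. The adjusted p ran from 0.00442 for Psmb5 to 0.0441 for Psma5 in limma. The Psma5 call was kept in 5 of 22 alternative settings, that of Psma7 in 14 and that of Psmb7 in 18. The other calls were kept in all 22. The median was -0.45 over the 46 genes and 0.05 over all genes. In 40 of 46 genes the sign was negative within each replicate taken by itself. The genes share the same arrays and are not independent, and the share over all genes was not counted. This test pools both ICOSpos subsets, so it does not test CD103neg ICOSpos cells apart from CD103pos ICOSpos cells. With the replicate number as a block 21 genes passed, all 10 among them, where the response was smaller for 8.77% of all genes and 13.2% passed in all. The same comparison for CD103 gave 0 passing genes by limma, where 0.296% of all genes passed. It gave 8 at an unadjusted p below 0.05, and the share of all genes at that threshold was not counted.

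**Figure D5:**
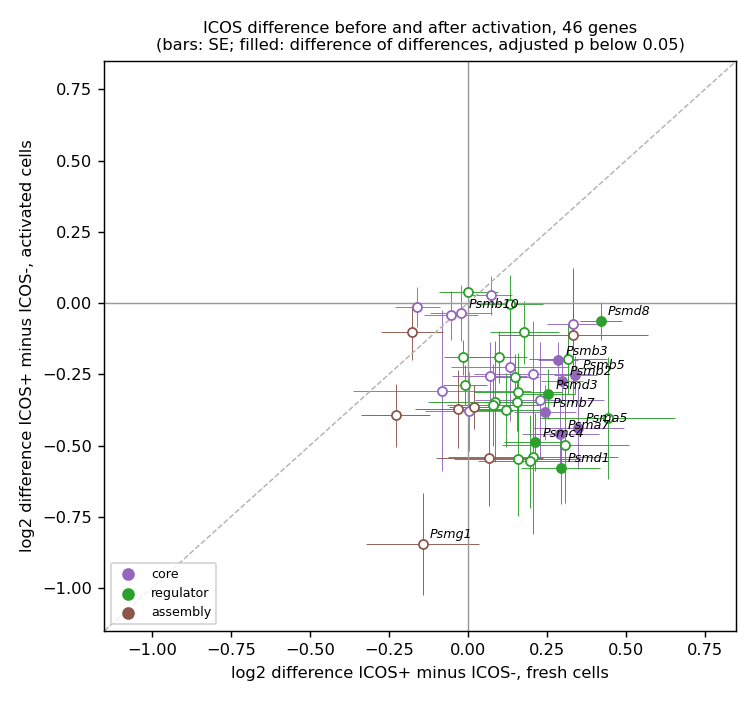
Log2 difference between ICOSpos and ICOSneg cells in fresh cells (x axis) and in activated cells (y axis) for 46 proteasome genes, with bars for the SE, colours for modules and filled points where the 2 differences differed (adjusted p below 0.05, limma). Most points lie right of 0 on the x axis and below 0 on the y axis, and the 10 filled points are core and regulator genes.

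The same comparisons were made without the array set apart. Without activated CD103neg ICOSpos replicate 2, the average activation count was 26 higher and 0 lower, all 26 among the 30, where 30.7% of all genes passed. By subset, the median activation difference over the 46 genes was then 0.51 in CD103neg ICOSneg and 0.69 in CD103pos ICOSneg cells. It was -0.0049 in CD103neg ICOSpos and 0.28 in CD103pos ICOSpos cells. The test of the difference between ICOSpos and ICOSneg responses gave 9 genes, all among the 10, where 5.92% of all genes passed. The CD103 comparison in activated cells and that of the CD103 responses gave 0 passing genes each by limma, where 0.361% and 0.321% of all genes passed. Between the 2 activated CD103neg ICOSpos arrays, 23 of 46 genes were lower and 23 higher on replicate 2, with a median difference of 0.00090. The extremes were Psmd13, at -0.41, and Psmg1, at 0.68.

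Replicates differed in fresh cells. For 23 of 46 genes replicate 2 lay above replicate 1 in all 4 fresh subsets, which held for 16.4% of all genes. The mean difference was largest for Psmc6 (0.78), Psmb4 (0.67), Psmd10 (0.67) and Psmd14 (0.63). In activated cells 6 genes showed this, and 7.69% of all genes. The median difference, replicate 2 minus replicate 1, was 0.15 in fresh and 0.0024 in activated cells over the 46 genes, and -0.05 and -0.04 over all genes.

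Psmc3ip, a factor of meiotic recombination matched by its symbol alone, rose by 0.52 ± 0.08 on average (SE, adjusted p = 0.000426, limma). Its rise was 0.76 ± 0.16 in CD103pos ICOSneg cells (adjusted p = 0.00581, limma), and its response was smaller in ICOSpos cells by the test of the difference (-0.73 ± 0.16, adjusted p = 0.0203, limma). Without the array set apart that difference was -0.77 ± 0.17 (adjusted p = 0.0263, limma). Psme3ip1 differed by -0.06 on average (adjusted p = 0.76, limma).

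Other genes of the ubiquitin-proteasome system were read from a list of 34 partners, of which 21 were measured. Averaged over the subsets 8 rose and 4 fell, where 14.4% and 16.8% of all genes did, with a median of 0.23. The count that fell was near the share of all genes. Without the array set apart the median was also 0.23, and fewer partners rose. The genes that rose most were Uchl5, a deubiquitinase on the regulatory particle (0.94 ± 0.18, SE), Pomp, the chaperone that matures the core (0.75 ± 0.16), Txnl1, a thioredoxin-like protein of the regulatory particle (0.69 ± 0.13), and Nploc4, a cofactor of the segregase VCP (0.56 ± 0.09). Those that fell were Ngly1 (-0.62 ± 0.07), which activates the proteasome gene regulator NRF1, Ube3c (-0.37 ± 0.06), a ubiquitin ligase, Akirin2 (-0.30 ± 0.07), which imports proteasomes into the nucleus, and Ufd1 (-0.22 ± 0.06), another VCP cofactor. All had adjusted p of 0.0199 or less in limma. In CD103neg ICOSpos cells 0 partners passed by limma, where 2.09% of all genes passed. The response was smaller in ICOSpos cells for 2 of 21, where 4.65% of all genes gave this, calls not kept without the array set apart. The 2 were Usp14 (-0.85 ± 0.23), a deubiquitinase, and Rad23b (-0.65 ± 0.17), a shuttle for ubiquitylated proteins.

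Division genes were read in the same comparisons. All 21 measured genes of a cell cycle list rose with activation on average, where 14.4% of all genes rose, with a median of 2.74. All 21 were higher in fresh ICOSpos than in fresh ICOSneg cells, where 4.1% of all genes were, with a median of 1.67. In CD103neg ICOSpos cells 11 of 21 rose, where 2.09% of all genes passed in either direction, with a median of 0.76. The response was smaller in ICOSpos cells for all 21, which held for 4.65% of all genes. Of all genes 5% were lower in activated ICOSpos than in activated ICOSneg cells. In activated cells 6 of 21 were lower in ICOSpos than in ICOSneg cells, with a median of -0.37. Without the array set apart that count was smaller and the median was -0.30. Without that array the median rise in CD103neg ICOSpos cells was 0.87, with fewer genes passing. The medians for average activation, fresh ICOSpos cells and the difference of responses were then 2.77, 1.67 and -2.15. Mki67, a marker of cycling cells, read 6.91 and 6.22 in fresh CD103neg ICOSneg and 10.73 and 10.85 in fresh CD103neg ICOSpos cells, and 11.37 to 11.74 over all activated arrays. The part of division in the proteasome values was not tested.

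Among interferon and antigen presentation genes more fell than rose. Of 22 measured, 10 fell and 1, Irf8, rose with activation on average, where 16.8% and 14.4% of all genes did. In activated cells 11 of 22 were higher in ICOSpos than in ICOSneg cells, where 1.94% of all genes were. Without the array set apart the median was -0.29 for average activation, against -0.36 with it. For activated ICOSpos minus ICOSneg cells it was 0.43 without that array and 0.46 with it. The largest falls were those of Ifit3 (-2.21 ± 0.17, SE) and Ifit1 (-1.90 ± 0.21), and Ifit1 was higher by 2.05 ± 0.29 in activated ICOSpos cells (adjusted p = 0.00499, limma). The array median of this list was 0.25 and, for replicate 2, 0.22 on the activated CD103neg ICOSpos arrays and between -0.61 and 0.03 on the other activated arrays. On the fresh CD103neg ICOSpos arrays it was 0.04 and 0.03. Psmb10, Psme1 and Psme2, which answer to interferon elsewhere, passed in neither comparison. The markers of T cells, conventional CD4 T cell activation, CD8 T and NK cells and erythroid cells and platelets gave 0 of 3, 2 of 6, 0 of 5 and 0 of 3 genes higher, and 1, 2, 2 and 0 lower, with activation on average, and Treg markers 2 of 6 higher and 1 lower. Without the array set apart the median difference of Treg markers was 0.12, against -0.06 with it. That of CD8 T and NK markers was -0.57, against -0.51 with it.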

How the data were processed

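RNA from 16 samples was measured on expression arrays. The deposited values are log2 intensities, made by the authors with RMA and the affy package per the submitters' processing notes, with no version or setting named there. They lie between 3.02 and 14.2 for 35556 probe sets, and array medians between 6.26 and 6.48. Arrays carry no counting depth, and 2 arrays per group limit the precision. The platform annotation gives 21789 probe sets 1 symbol, 1621 several and 12146 none. One-symbol probe sets were used, the brightest per gene.

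limma 3.58.1 in R 4.3.3 was fitted to all 16 arrays with 8 group means (8 residual degrees of freedom, prior 2.90). The test was checked on simulated data. There were 12 comparisons, and a gene passed at adjusted p below 0.05 over 19938 genes. p-values measure the spread between samples labelled biological replicates. The replicate number was also fitted as a block. Deviations of same-numbered arrays correlated above 0.1 in 6 of 6 fresh pairs and 6 of 6 activated pairs, and the numbers were taken to pair samples. Between states 15 of 16 pairs did, and over all groups 27 of 28. The cut-off thus does not tell pairing within a state from pairing across states, and the labels state no pairing. Correlations were 0.50 to 0.75 in fresh, 0.11 to 0.45 in activated and -0.02 to 0.42 in between-state pairs. Other alternatives were quantile normalization again, median centring, the mean of a gene's probe sets, dim genes left out, array weights and each array left out.

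The members and lists were chosen with earlier results of these data known. Full statistics went to up to 4 passing genes per module and direction (5 for a difference between states) with the same sign in both replicates, and to the catalytic, alternative activator and tissue-restricted genes. Psme3ip1 was not foreseen, and other genes given with values are members described for their role or chosen after their values were seen. Probe sets of the 5 members with several agree in direction.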

Additional observations from a re-analysis of the deposited data

Results flagged for a closer look

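For 11 genes the activation response of ICOSpos cells differed from that of ICOSneg cells, by limma's test of the difference itself. The log2 difference, response in ICOSpos minus response in ICOSneg cells, was -0.79 for Psma5, -0.75 for Psma7, -0.57 for Psmb2, -0.49 for Psmb3, -0.59 for Psmb5 and -0.63 for Psmb7 among the core genes. It was -0.70 for Psmc4, -0.87 for Psmd1, -0.57 for Psmd3 and -0.48 for Psmd8 among the regulator genes, and -0.73 for Psmc3ip, which is not a subunit. Each had the same sign within each replicate taken by itself. The Psma5 call was kept in 5 of 22 alternative settings, Psma7 in 14, Psmb7 in 18, Psmc3ip in 19 and the others in all 22.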

How the results depend on the processing

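Of 2463 values of 112 called gene differences under the alternatives, 2159 kept direction and call, 304 kept direction only and 0 reversed. Of 756 module values 11 moved by more than the spread between replicates. In CD103pos ICOSpos cells the activation count of 9 became 14 with quantile normalization again or with the replicate block and 3 with median centring, and the assembly module difference became 0.36 with quantile normalization. The fresh ICOS count of 5 became 3 with median centring, 2 with dim genes left out and 8 with the replicate block. The replicate block gave 23 for the activated ICOS comparison, 21 for the difference of the ICOS responses and 1 for that of the CD103 responses. It moved no other count by over 1.5 times, and correlations fall below 0.1 in 1 pair between states. Leaving out each array gave 25 to 32 genes for average activation, 11 to 18 in CD103neg ICOSneg, 18 to 28 in CD103pos ICOSneg, 0 to 0 in CD103neg ICOSpos and 2 to 10 in CD103pos ICOSpos cells. It gave 1 to 5 for ICOS in fresh cells, 0 to 10 in activated cells, 7 to 13 for the difference of the ICOS responses and 0 to 1 for that of the CD103 responses. Core activation in CD103neg ICOSneg cells ranged from 0.40 to 0.76 and in CD103pos ICOSpos cells from 0.23 to 0.48. Regulator activation in CD103pos ICOSneg cells ranged from 0.48 to 0.86, and assembly activation in CD103neg ICOSpos cells from -0.31 to -0.044. The fresh interaction ranged from -0.30 to 0.052 in core and from -0.42 to -0.011 in regulator genes. Causes were not tested. Scaling moved the median of all genes by less than 0.1, and signal over background limits Psma8, Psmb11 and Psmg3.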
